A study of Mus musculus with 4 samples.

Results

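*Cxcl1*, *Cxcl2*, *Cxcl3*, *Cxcr2* and *Cxcr4* were followed across the leukocytes of 4 mouse mammary tumors. These 5 genes, of 32285 in the count table, were listed by name as neutrophil-attracting chemokines and as the receptors that guide neutrophils, by a rule with no threshold on expression. Female C57BL/6 mice of 2 genotypes, Csf1rfl/fl and Lyve1CreCsf1rfl/fl, carried orthotopic EO771 tumors, grown from a mouse mammary carcinoma line, and tumors were taken at 1.5 cm3. Both genotypes carried the floxed *Csf1r* alleles, and the Lyve1Cre animals in addition expressed Cre from the *Lyve1* promoter, so that *Csf1r*, the receptor for colony-stimulating factor 1, was deleted in cells that express *Lyve1*. Viable CD45+ cells of 1 tumor per genotype were marked with hashtag antibodies and pooled in each of 2 Chromium 3′ runs, so each genotype had 2 tumors and each run held 1 tumor of each genotype. The ages of the mice were not given in the sources used here.

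Of 53361 barcodes, the 28429 that the study retained were used, and 28418 had a higher count of 1 hashtag and so a tumor of origin. The 4 tumors contributed 4771 to 8613 cells and 27686362 to 56349195 unique molecular identifiers (UMIs, each standing for 1 captured transcript). The runs shared 60 barcode sequences among retained cells. The study had removed clusters held almost wholly by the second Lyve1CreCsf1rfl/fl tumor, so shares of cells are not compared between genotypes here. Levels of *Csf1r* in mononuclear phagocytes were 2.37 and 2.52 UMIs per 10000 in the Csf1rfl/fl tumors and 1.57 and 1.53 in the Lyve1CreCsf1rfl/fl tumors, a log2 difference of -0.64 (SE 0.20) that did not pass the test. Because 3′ tags need not cover the deleted exon, this value is no check of the genotype labels. *Csf1r* is also among the markers that assigned mononuclear phagocytes. It was lower in Lyve1CreCsf1rfl/fl tumors in other types too, at 0.442 and 0.385 against 0.273 and 0.335 in neutrophils. Dendritic cells stood at 0.610 and 0.678 against 0.383 and 0.481, and T cells at 0.162 and 0.116 against 0.0731 and 0.0702.

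CXCL1, CXCL2 and CXCL3 are chemokines with a glutamate-leucine-arginine (ELR) motif, and they draw neutrophils out of blood by binding CXCR2. Their genes are induced by NF-κB after microbial or cytokine signals. CXCR2 favors release of neutrophils from bone marrow and entry into tissue, whereas CXCR4, the receptor for CXCL12, retains them in marrow and guides aged cells back to it. CXCR4 is also carried by many other leukocytes.

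The 3 chemokine genes lie within 119836 bp of chromosome 5 on the plus strand (GRCm38). *Cxcl3* (ENSMUSG00000029379) occupies chr5:90786103-90789600, *Cxcl1* (ENSMUSG00000029380) chr5:90891241-90893115 and *Cxcl2* (ENSMUSG00000058427) chr5:90903871-90905938. *Cxcr2* (ENSMUSG00000026180) lies at chr1:74153989-74161246 on the plus strand, and *Cxcr4* (ENSMUSG00000045382) at chr1:128588199-128592293 on the minus strand. RefSeq promoter sequence (GRCm38.p6) was present for all 5 genes. The longest stretch that the 250 bases before the start of the 3 chemokine genes had in common, on the strand of the gene, was GGGAATTTCCC, which holds a form of the site bound by NF-κB. The letters were thus chosen from these 3 promoters, and their presence there is no finding. Searched on both strands, the stretch was found in 14 of 32851 promoters of the same length (0.0426%), these 3 included, and not in those of *Cxcr2* and *Cxcr4* or of the 9 NF-κB induced inflammatory genes with a promoter entry. Positions are counted from the transcription start of RefSeq, which differs by some bases from the start of the gene models given above. The stretches from 130 to 31 bases before the RefSeq start are shown because they hold the match, given in capitals.
Cxcl1, chr5:90891115-90891214, plus strand: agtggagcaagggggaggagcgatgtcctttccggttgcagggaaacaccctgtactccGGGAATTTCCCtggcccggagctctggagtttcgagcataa
Cxcl2, chr5:90903769-90903868, plus strand: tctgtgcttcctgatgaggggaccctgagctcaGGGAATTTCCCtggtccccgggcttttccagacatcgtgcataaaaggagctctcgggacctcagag
Cxcl3, chr5:90785971-90786070, plus strand: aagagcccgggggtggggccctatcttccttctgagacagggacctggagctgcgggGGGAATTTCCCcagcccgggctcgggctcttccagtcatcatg
The match began 71 bases before the RefSeq start in *Cxcl1*, 97 in *Cxcl2* and 73 in *Cxcl3*. A match of letters is a description and not a measured binding site.

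Because the chemokine genes are related, shared transcript sequence was measured. The longest stretch common to *Cxcl2* and *Cxcl3* transcripts was 110 bases, and it lay 850 bases from the *Cxcl3* end and 939 or more bases from the *Cxcl2* ends. The other pairs shared at most 23 bases. Reads in a 3′ library start near transcript ends, and how reads from the shared stretch were assigned was not tested.

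Cells were assigned to types by lineage markers that included none of the 5 genes. Neutrophil-like cells, called neutrophils here, numbered 5103 (18.0% of cells with a tumor), with 670 to 1656 in each tumor and a median of 1995 UMIs per cell. All 8 neutrophil markers were detected in them, and their leading genes over the other types were *S100a9*, *S100a8*, *Retnlg* and *G0s2*. These 4 genes are among the markers that assigned the cells, so their lead is no check of identity. Cells that also met the thresholds of mononuclear phagocytes or T cells had been set aside, which by itself keeps the sums of those markers low. The summed level of markers of mononuclear phagocytes in neutrophils was 8.45 to 10.8 UMIs per 10000 in the 4 tumors, against 87.3 to 101 in the mononuclear phagocytes themselves, with none of these 6 markers at 0. The summed level of Arg1 macrophage markers did not separate them, at 7.02 to 12.4 in neutrophils and 7.04 to 9.76 in mononuclear phagocytes. The summed level of T cell markers in neutrophils was 0.546 to 0.901 UMIs per 10000. Of the 7500 cells assigned by T cell markers, called T cells here, 3117 were placed neither with CD8 T cells nor with regulatory T cells. This remainder also takes any cell with CD8 markers together with *Cd4* or *Foxp3*. The leading genes of these 3117 cells held the NK markers *Klrb1c* and *Gzma* and 1 T cell marker, so they are called the rest of the T cell gate and given no cell type. Cells that carried markers of 2 lineages (3630 cells, 12.8%) or met no marker threshold (1490 cells) were kept apart from all types.

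*Cxcl2* was highest in neutrophils in every tumor. Its level, as UMIs per 10000 UMIs of the cell type, was 460 in run 1 and 453 in run 2 for Csf1rfl/fl, and 630 and 380 for Lyve1CreCsf1rfl/fl, a mean of 481 ± 106 (SD, n = 4). The next type was Arg1 macrophages, at 76.5, 24.0, 54.5 and 39.5 in the same order of tumors, and 9.89-fold lower on average. No tumor's Arg1 macrophages reached the level of any tumor's neutrophils. The other mononuclear phagocytes were at 31.6 ± 11.7, C1q macrophages at 14.2 ± 6.29 and monocytes at 11.2 ± 2.55, and each of these overlapped its neighbor in the order. NK cells, dendritic cell types and the groups of the T cell gate lay between 2.68 and 5.01, tumor and stromal cells at 1.55, and plasmacytoid dendritic cells at 1.15 ± 0.66, and these last 2 overlapped. Among single neutrophils the median *Cxcl2* level was 442 UMIs per 10000, 5% of cells were under 11.7 and 5% over 1209. The 10% of neutrophils with the most *Cxcl2* UMIs, ranked by count and not scaled to depth, held 30.9% of the *Cxcl2* UMIs of neutrophils.

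*Cxcl3* followed the same leading pair of types. Neutrophils held 19.2 and 22.8 UMIs per 10000 in the Csf1rfl/fl tumors and 29.7 and 19.1 in the Lyve1CreCsf1rfl/fl tumors (22.7 ± 4.96), all above the 4.39, 0.934, 6.71 and 0.841 of Arg1 macrophages. The ratio of the means was 7.05. In Arg1 macrophages 50 of 274 cells had a *Cxcl3* UMI, and 5 cells held 229 of the 468 UMIs. Below Arg1 macrophages each type overlapped the next, from other mononuclear phagocytes at 0.974 ± 1.34 to plasmacytoid dendritic cells at 0.0507 ± 0.0413. Of all single neutrophils, 54.9% had no *Cxcl3* UMI, against 2.78% with no *Cxcl2* UMI. The share without a *Cxcl3* UMI was 54.8% and 61.0% in the Csf1rfl/fl tumors and 45.7% and 62.2% in the Lyve1CreCsf1rfl/fl tumors. The 10% of neutrophils with the most *Cxcl3* UMIs, again ranked by count, held 61.6% of the *Cxcl3* UMIs of neutrophils.

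*Cxcl1* was sparse in leukocytes, and no order of types could be drawn at the top. Its level in neutrophils was 0.314, 0.453, 0.691 and 0.216 UMIs per 10000 (0.418 ± 0.206), from 594 UMIs in 142 cells. Tumor and stromal cells, which passed the CD45 sort in small number (252 cells), held 0.758, 0.276, 0.672 and 0.120 (0.457 ± 0.307), which overlapped neutrophils. These levels came from 626 UMIs in 92 cells, of a type with a median of 45969 UMIs per cell. Arg1 macrophages had a mean of 0.346, but 5 cells held 66 of their 69 UMIs, and the 4 tumors stood at 1.31, 0.0340, 0.0383 and 0. The remaining types were at or under 0.237, and plasmacytoid dendritic cells had no *Cxcl1* UMI among 441 cells.

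*Cxcr2* was highest in neutrophils in every tumor. They held 5.57 and 9.58 UMIs per 10000 in the Csf1rfl/fl tumors and 6.02 and 7.72 in the Lyve1CreCsf1rfl/fl tumors (7.22 ± 1.82). The other mononuclear phagocytes came next, at 0.275, 0.260, 0.793 and 0 in the same order, from 21 UMIs, and did not overlap neutrophils. All other types lay at or under 0.109, and each overlapped the next.

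*Cxcr4* was spread over most leukocytes. Neutrophils were highest, at 2.09, 2.22, 2.44 and 2.72 UMIs per 10000 (2.37 ± 0.28), and did not overlap the other mononuclear phagocytes at 0.995, 1.47, 1.13 and 1.51 (1.28 ± 0.25), a ratio of 1.85. Arg1 macrophages followed at 0.929 ± 0.155, then the rest of the T cell gate at 0.773 ± 0.307, C1q macrophages at 0.716 ± 0.189 and monocytes at 0.708 ± 0.124. NK cells, the remaining dendritic types and CD8 and regulatory T cells lay between 0.366 and 0.563, overlapping from each type to the next. cDC1, the dendritic cells that take up dead cells, were the lowest leukocytes at 0.216 ± 0.027, and tumor and stromal cells were 13.2-fold lower again, at 0.0164. These levels are scaled to the UMIs of each type. Counted per cell, neutrophils had 0.563 *Cxcr4* UMIs and Arg1 macrophages 0.555, with 32.6% and 31.0% of cells holding at least 1.

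**Figure D1:**
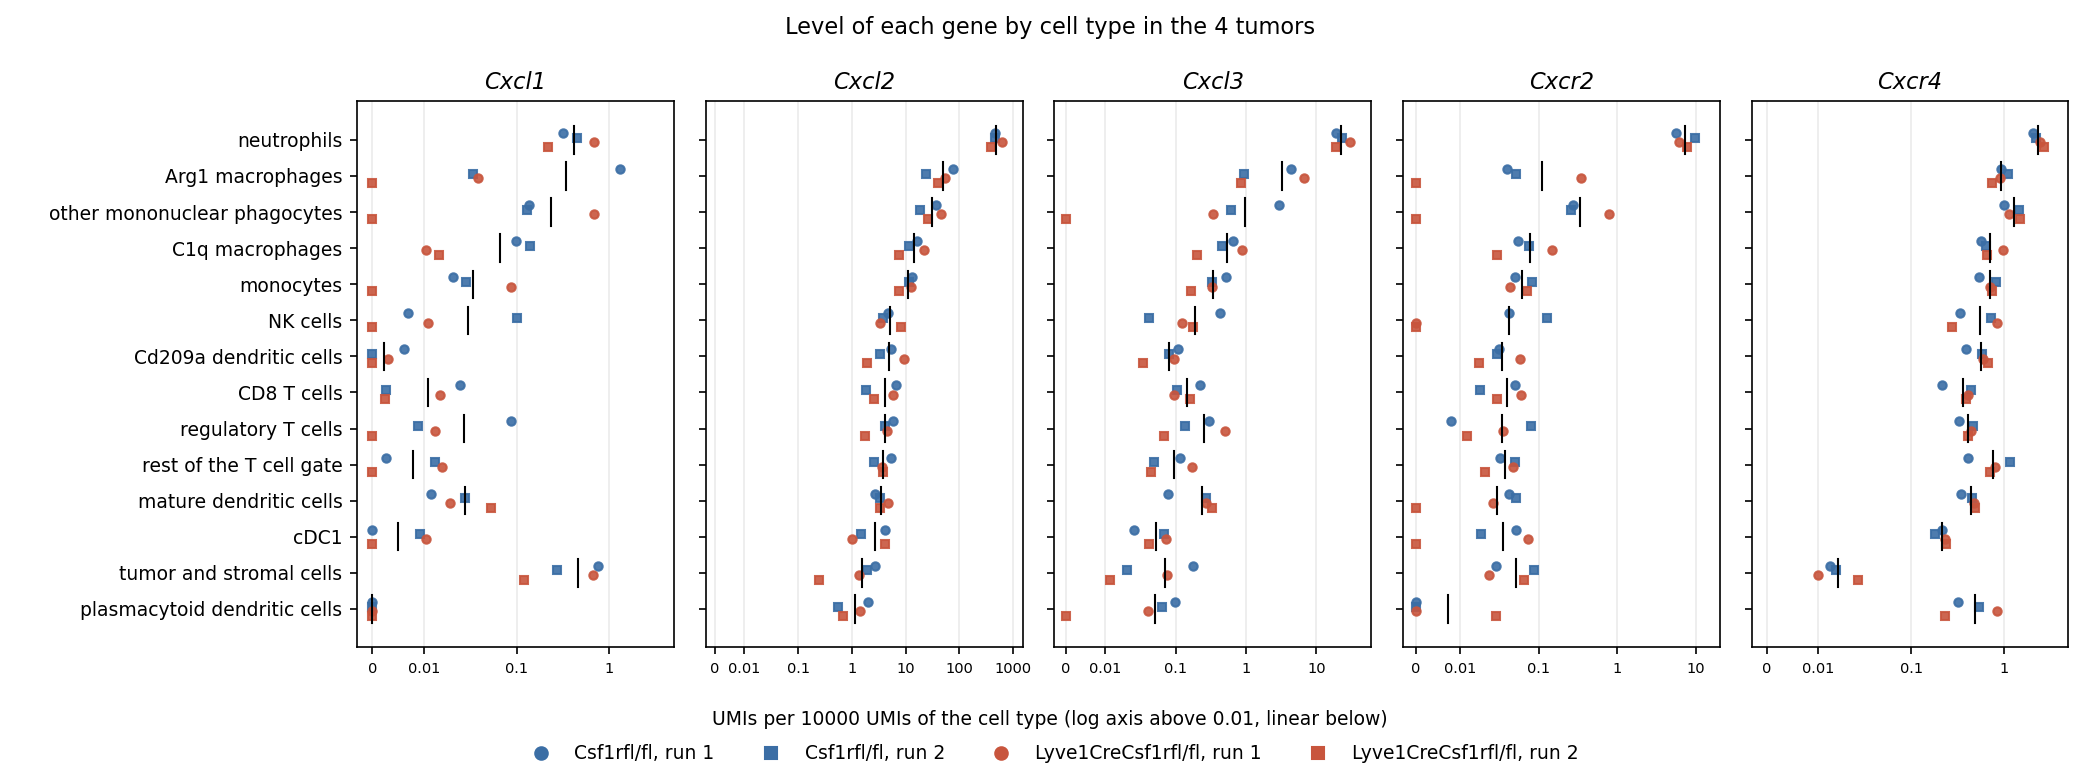
Level of each of the 5 genes (UMIs per 10000, on an axis that is logarithmic above 0.01 and linear below) in every cell type, with 1 point per tumor colored by genotype and a bar for the mean of the 4 tumors. Neutrophils stand above all other types without overlap for *Cxcl2*, *Cxcl3*, *Cxcr2* and *Cxcr4*, whereas neutrophils, tumor and stromal cells and Arg1 macrophages overlap for *Cxcl1*.

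In all, neutrophils held 63.4% of the *Cxcl2* UMIs of cells with a tumor, 64.4% of those of *Cxcl3*, 68.1% of those of *Cxcr2*, 29.9% of those of *Cxcl1* and 25.6% of those of *Cxcr4*. Tumor and stromal cells held 31.5% of the *Cxcl1* UMIs. Cells with markers of 2 lineages, whose median was 7516 UMIs, held 25.6% of the *Cxcl2* UMIs and 26.6% of those of *Cxcr2*. These shares are pooled over the tumors. By tumor, neutrophils held 46.7% and 69.8% of *Cxcl2* UMIs for Csf1rfl/fl and 72.8% and 63.6% for Lyve1CreCsf1rfl/fl. Their share of *Cxcl1* UMIs ran from 13.3% to 42.03%. Cells with markers of 2 lineages held 40.2%, 17.8%, 19.7% and 20.3% of *Cxcl2* UMIs in the same order. They were 18.3%, 8.73%, 10.5% and 12.8% of cells. What part this uneven loss had in the genotype comparisons was not tested.

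Free RNA in droplet libraries places transcripts of abundant cells in droplets of other types, so the members were set against *S100a9*, which encodes a subunit of calprotectin and marks neutrophils, in each type. The ratio of *Cxcl2* to *S100a9*, with the ratio in neutrophils of the same tumor set to 1, was 1.03 (0.612 to 1.81 over tumors) in plasmacytoid dendritic cells and 0.994 (0.440 to 1.56) in tumor and stromal cells. It was 6.63 (5.52 to 7.69) in monocytes, 8.39 (6.27 to 9.64) in C1q macrophages and 37.8 (10.04 to 74.7) in Arg1 macrophages. It was 3.18 on average in CD8 T cells, 3.23 in regulatory T cells and 3.26 in the rest of the T cell gate. In every tumor each group of mononuclear phagocytes had at least 5.35 times as much *Cxcl2* per *S100a9* as the neutrophils. *S100a9* and *S100a8* are among the markers that assigned neutrophils. Cells over the neutrophil threshold were not kept in another leukocyte type, which by itself limits *S100a9* there and can raise these ratios. How much of the ratios this made up was not tested. What part free RNA had in the levels of the other types was not tested.

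The same ratio separated the receptors. For *Cxcr2* it was highest in the other mononuclear phagocytes, at 9.61 (0 to 19.4) from 21 UMIs, and 3.21 (1.64 to 6.51) in C1q macrophages. It was 2.40 (2.08 to 2.62) in monocytes and 2.19 (0.807 to 3.09) in CD8 T cells, and 0.511 in plasmacytoid dendritic cells, which had 1 UMI. For *Cxcr4* it was 34.6 or more in every tumor in each leukocyte type other than neutrophils, and 2.98 (1.27 to 6.82) in tumor and stromal cells. For *Cxcl3* it ran from 0.993 in tumor and stromal cells to 40.5 (11.1 to 103) in Arg1 macrophages. *S100a8*, the other calprotectin subunit, gave 0.903 to 1.30 in all types but monocytes (2.28) and Arg1 macrophages (1.68).

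**Figure D2:**
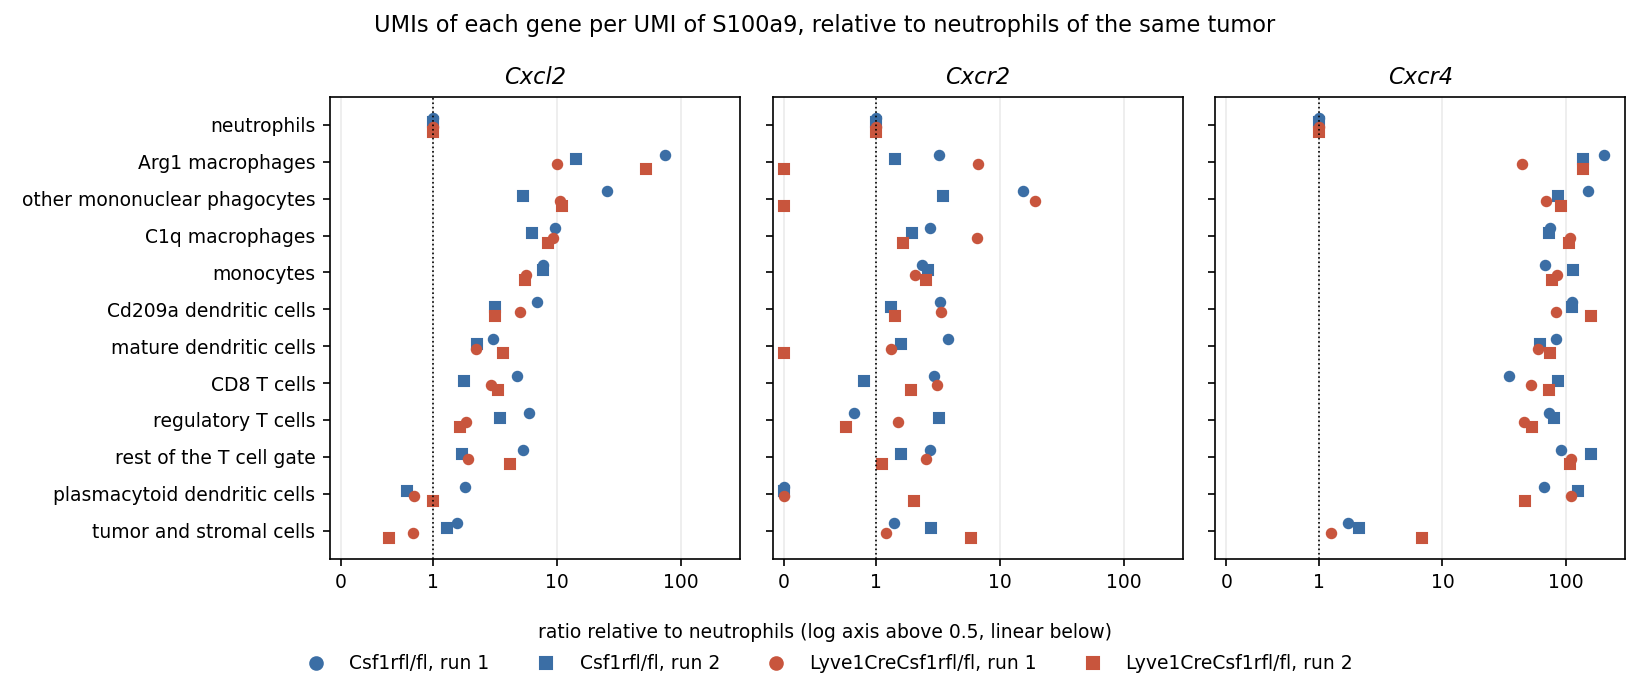
Ratio of *Cxcl2*, *Cxcr2* and *Cxcr4* to *S100a9* in 12 cell types (NK cells and cDC1 not drawn), relative to neutrophils of the same tumor, with 1 point per tumor, on an axis that is logarithmic above 0.5 and linear below. Apart from the neutrophils, set to 1, *Cxcr4* stands at 34.6 or more in the leukocyte types drawn, and *Cxcl2* reaches 37.8 on average in Arg1 macrophages but 1.03 in plasmacytoid dendritic cells.

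Detection in single cells was compared after each cell was thinned to 1000 UMIs, which left out 162 neutrophils. A *Cxcl2* UMI was found in 96.1% ± 2.2 (SD, n = 4) of the neutrophils of a tumor, against 96.8% before thinning, and in 13.2% ± 2.3 of T cells, which served as cells not known for the gene and had a median of 3843 UMIs before thinning. A *Cxcl3* UMI was found in 38.3% ± 6.6 of neutrophils and 0.886% of T cells. A *Cxcl1* UMI was found in 1.92% ± 0.90 of neutrophils and 0.103% of T cells. In tumor and stromal cells the share was 6.42% ± 5.51, with 0 in the Lyve1CreCsf1rfl/fl tumor of run 2. Thinning lowered the share of neutrophils with a *Cxcr2* UMI from 65.2% to 45.4% ± 6.3, against 0.359% of T cells, and the share with a *Cxcr4* UMI from 32.4% to 19.5% ± 1.6, against 6.001% of T cells, which carry this receptor. In mononuclear phagocytes the thinned shares were 29.5% for *Cxcl2*, 2.53% for *Cxcl3*, 0.586% for *Cxcr2* and 7.21% for *Cxcr4*. The shares depend on depth, and a cell without a UMI may still express the gene.

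Cell types were then tested on UMIs summed per tumor, with the tumor as a block (edgeR quasi-likelihood test, Benjamini-Hochberg adjustment over all genes). Neutrophils and mononuclear phagocytes differed in 74.4% of 9748 genes tested, with 35.4% higher and 38.9% lower in neutrophils, so a call on its own says little about a gene, and the size is given for each member. All 5 genes were higher in neutrophils, in 4 of 4 tumors. The log2 fold change was 6.23 (SE 0.16, adjusted p = 3.89e-16) for *Cxcl2*, 6.60 (SE 0.25, adjusted p = 5.37e-14) for *Cxcl3* and 3.72 (SE 0.28, adjusted p = 6.65e-10) for *Cxcl1*. It was 7.76 (SE 0.18, adjusted p = 1.29e-16) for *Cxcr2* and 2.84 (SE 0.11, adjusted p = 4.06e-14) for *Cxcr4*. In mononuclear phagocytes *Cxcl1* had 208 UMIs, 1 of them in the Lyve1CreCsf1rfl/fl tumor of run 2. It thus met the filter on low counts in all 4 tumors in neutrophils alone, and its adjusted p is given as a description. The median over all genes tested was -0.17. These values used TMM scaling, which sets most genes level between libraries. With plain library totals the median of all genes moved to -1.33, with 16.3% of genes higher and 71.5% lower, and the members stood at 5.07 for *Cxcl2*, 5.43 for *Cxcl3*, 2.58 for *Cxcl1*, 6.59 for *Cxcr2* and 1.68 for *Cxcr4*, all still called higher. Counted per cell without scaling, neutrophils and mononuclear phagocytes held 124 and 7.92 *Cxcl2* UMIs, and 5.83 and 0.318 of *Cxcl3*. For *Cxcl1* they held 0.116 and 0.0405, for *Cxcr2* 1.71 and 0.0381, and for *Cxcr4* 0.563 and 0.376. The median depths were 1995 and 4669 UMIs per cell, so the lead in *Cxcr4* was smaller per cell than under either scaling. A few genes took a large part of the neutrophil UMIs, and which scaling is nearer to transcripts per cell was not tested.

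Against T and NK cells together, 80.8% of 11495 genes tested differed, 35.9% of those tested being higher and 44.9% lower in neutrophils. The 5 genes were again higher in 4 of 4 tumors, with log2 fold changes of 8.30 (SE 0.23) for *Cxcl2*, 8.62 (SE 0.25) for *Cxcl3*, 6.22 (SE 0.26) for *Cxcl1*, 8.89 (SE 0.21) for *Cxcr2* and 3.64 (SE 0.14) for *Cxcr4*. The highest adjusted p among them was 8.28e-15 (edgeR). With library totals the values were 6.89, 7.21, 4.81, 7.48 and 2.23 in the same order, beside a median of all genes of -1.75 and with 17.7% of genes higher and 72.2% lower. The neutrophil sums of the 2 comparisons are the same libraries. *Cxcl1* had 64 UMIs in T and NK cells and again met the filter on low counts in all 4 tumors in neutrophils alone.

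Related genes were described by lists. Of 7 other ELR chemokines, receptors and partners of *Cxcr4*, only *Cxcr1*, the second receptor for ELR chemokines, had enough UMIs for the test, and it was higher in neutrophils than in mononuclear phagocytes by a log2 of 7.06 (5.92 with library totals). *Cxcr1* passed the filter on low counts only through the neutrophils. *Cxcl5*, *Cxcl12*, the ligand of CXCR4, and *Ackr1*, a scavenging receptor, had no UMI in either type. The levels of *Ppbp*, *Cxcl15* and *Ackr3* were at or under 0.0458 UMIs per 10000 in both types, too low for the test.

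The counts of the next 2 lists stand beside 35.4% of all genes tested that were higher in neutrophils with TMM and 16.3% with library totals. Receptors for other neutrophil attractants were higher in neutrophils for 7 of 7 genes under both scalings, with a median log2 fold change of 3.49 (2.34 with library totals). They included *Csf3r*, the receptor for granulocyte colony-stimulating factor (11.8 against 1.18 UMIs per 10000), *Ccr1*, a receptor for CCL3 (12.8 against 2.49), *C5ar1*, the receptor for complement C5a (3.66 against 0.691) and *Fpr1*, a formyl peptide receptor (3.41 against 0.408). The NF-κB induced inflammatory genes were higher for 11 of 11, with a median of 4.11 (2.95 with library totals). Among them *Il1b*, which encodes interleukin-1β, stood at 141 against 12.5 UMIs per 10000, *Ptgs2*, which encodes cyclooxygenase-2, at 25.4 against 1.36, *Nfkbiz*, which encodes a nuclear IκB protein, at 16.9 against 1.68, and *Nfkbia*, which encodes the NF-κB inhibitor IκBα, at 49.3 against 6.30.

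Of 7 genes linked to neutrophil aging and tissue residence, *Siglecf* and *Ly6g*, the latter also a marker used to assign neutrophils, did not pass the filter on low counts within mononuclear phagocytes and so entered this comparison through the neutrophils alone, where they had to differ. The other 5 were higher in neutrophils under both scalings, led by *Mmp9*, a matrix protease (3.61 against 0.0270 UMIs per 10000), *Vegfa*, an angiogenic factor (1.20 against 0.151), and *Cd274*, which encodes PD-L1 (9.15 against 1.70). In mononuclear phagocytes the mean level of *Mmp9* was under the 0.0655 of *Cxcl1*, which met the filter of this comparison in all 4 tumors in neutrophils alone. The call of *Mmp9* is likewise given as a description. Adhesion and migration genes were all 7 higher with TMM, with a median of 1.41, but 4 higher and 1 lower with library totals, with a median of 0.25, a scaling under which 16.3% of all genes were higher and 71.5% lower. *Cd44*, a hyaluronan receptor, was higher by 2.98 and *Selplg*, which encodes a ligand of selectins, by 2.08 (1.83 and 0.93 with library totals). *Itgb2*, the integrin β2 chain, was higher by 0.62 with TMM and lower by -0.54 with library totals.

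The direction called for genes of chemokine receptor signaling and desensitization depended on the scaling. Of 5 tested, 4 were higher with TMM and all 5 were lower with library totals, as were 71.5% of all genes. *Grk2*, the kinase that marks activated receptors for uptake, was at 1.30 UMIs per 10000 in neutrophils and 1.68 in mononuclear phagocytes, and *Gnai2*, which encodes an inhibitory G protein subunit, at 4.78 and 7.20. Against T and NK cells the counts under TMM were 7 of 7 for attractant receptors, 7 of 7 for adhesion, 5 of 5 for signaling, 11 of 11 for NF-κB induced genes and 5 of the same 5 genes of aging and residence. Of all genes tested, 35.9% were higher there. With library totals adhesion fell to 5 higher and 1 lower and signaling to 0 higher and 2 lower, where 17.7% of all genes were higher and 72.2% lower.

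**Figure D3:**
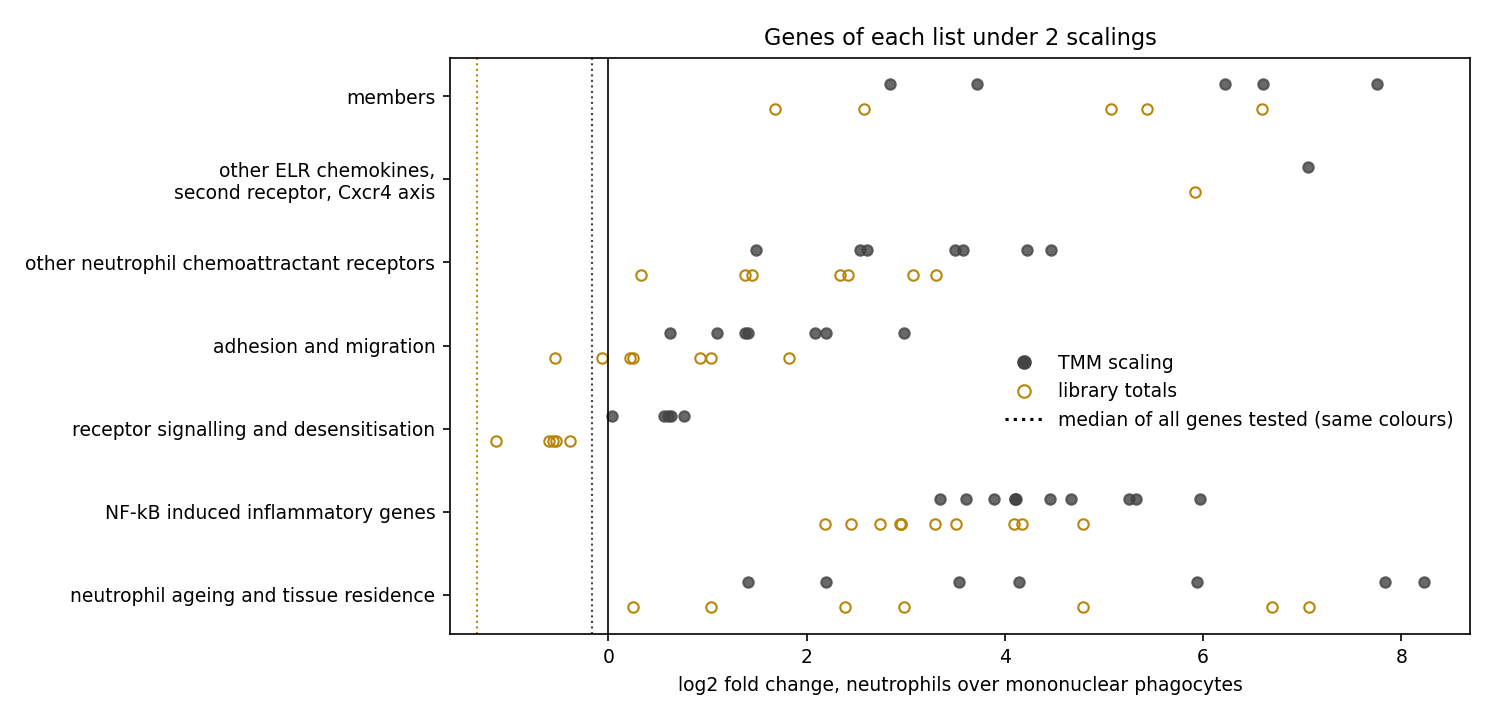
Log2 fold change of each tested gene of the 5 members and of 6 related lists, neutrophils over mononuclear phagocytes, with TMM scaling (filled) and library totals (open). Dotted lines mark the median of all genes tested, -0.17 and -1.33, and the signaling genes change side of 0 between the scalings.

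The genes whose levels moved most like each member were found over 56 sums of a cell type in a tumor, among 5492 genes, as a description with no test. The sums share libraries and tumors, and types differ in depth. *Cxcl2* was nearest to *Ptgs2* (Pearson r = 0.948 on log2 levels), *Cd14*, a lipopolysaccharide coreceptor (r = 0.942), and *Clec4d*, a C-type lectin (r = 0.941). *Cxcl3* was nearest to *Il1a* (r = 0.921), *Tnfrsf23*, a decoy receptor for TRAIL (r = 0.921), and *Cxcl2* (r = 0.897). *Cxcr2* was nearest to *Steap4*, a metalloreductase (r = 0.975), *Chil1*, a chitinase-like protein (r = 0.973), and *S100a9* (r = 0.956). *Cxcr4* was nearest to *Ddit3*, which encodes CHOP (r = 0.877), *Tet2*, a DNA demethylating enzyme (r = 0.873), and *Mxd1*, a MYC antagonist (r = 0.870). *Cxcl1* was below the level required in every type and was not compared.

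Within neutrophils, the receptors were read together in 4941 cells thinned to 1000 UMIs. A *Cxcr2* UMI alone was found in 1813 cells, a *Cxcr4* UMI alone in 508, both in 449 and neither in 2171. *Cxcr4* was detected in 19.8% of cells with a *Cxcr2* UMI and in 18.96% of cells without. By tumor, *Cxcr4* was found in 20.6%, 18.5%, 21.8% and 18.3% of cells with *Cxcr2* and in 16.97%, 16.9%, 20.6% and 22.4% of those without.

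The neutrophils with a *Cxcr2* UMI alone were set against those with a *Cxcr4* UMI alone, as a description over cells chosen by these UMIs. *S100a9* was at 930 against 678 UMIs per 10000, a ratio of 1.37 (1.26 to 1.57 over tumors), and *S100a8* gave 1.43. *Fpr1* gave 1.54 (1.17 to 1.804) and *Il1b* 1.15 (1.09 to 1.19). The opposite order held for *Tnf*, an inflammatory cytokine, at 0.609 (0.525 to 0.698), *Icam1*, an adhesion ligand, at 0.610 (0.366 to 0.809), *Cd274* at 0.690 (0.655 to 0.823), *Vegfa* at 0.684 (0.547 to 0.868) and *Ccl3*, a macrophage-attracting chemokine, at 0.759 (0.559 to 0.858). Each of these ratios lay on the same side of 1 in all 4 tumors. *Cxcl2* did not separate these cells (1.06, 0.932 to 1.14), and *Cxcl3* was somewhat higher with *Cxcr2* (1.38, 1.06 to 1.61). Cells with both receptors or neither were outside this comparison. In UMIs per 10000, *Cd274* was at 7.34 with both and 12.3 with neither, beside 7.55 with *Cxcr2* alone and 10.95 with *Cxcr4* alone. In the same order *Tnf* was at 3.51 and 5.35, beside 3.54 and 5.82, and *Ccl3* at 32.5 and 77.4, beside 46.4 and 61.1. *Icam1* was at 1.66 and 1.45, beside 1.08 and 1.78, and *Vegfa* at 1.48 and 1.47, beside 0.946 and 1.38. *Cxcl3* was at 9.60 and 28.1, beside 20.5 and 14.9, so it was highest in cells with neither receptor and lowest in cells with both. *Cxcl2* was at 384 and 532, beside 467 and 441, and *Il1b* at 199 and 124, beside 169 and 146.

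Neutrophils with a *Cxcl3* UMI (1944 cells) were likewise set against the 2997 without. *Cxcl2* was at 637 against 391 UMIs per 10000, a ratio of 1.63 (1.45 to 1.87), and *Cxcr4* at 1.71 against 3.32, a ratio of 0.517 (0.391 to 0.639). *Cxcr2* was at 6.54 against 8.06, a ratio of 0.812 (0.747 to 0.896). *Il1a*, which encodes interleukin-1α, gave 1.93 (1.32 to 3.07), *Ccl3* 1.84 (1.45 to 2.24) and *Ccl4* 1.56 (1.21 to 1.92), whereas *Csf3r* gave 0.738 (0.650 to 0.853) and *Il1b* 0.823 (0.673 to 0.935). The cells richer in *Cxcl3* were therefore richer in *Cxcl2*, *Ccl3*, *Ccl4* and *Il1a* and poorer in both receptors and in *Il1b* in each of the 4 tumors.

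**Figure D4:**
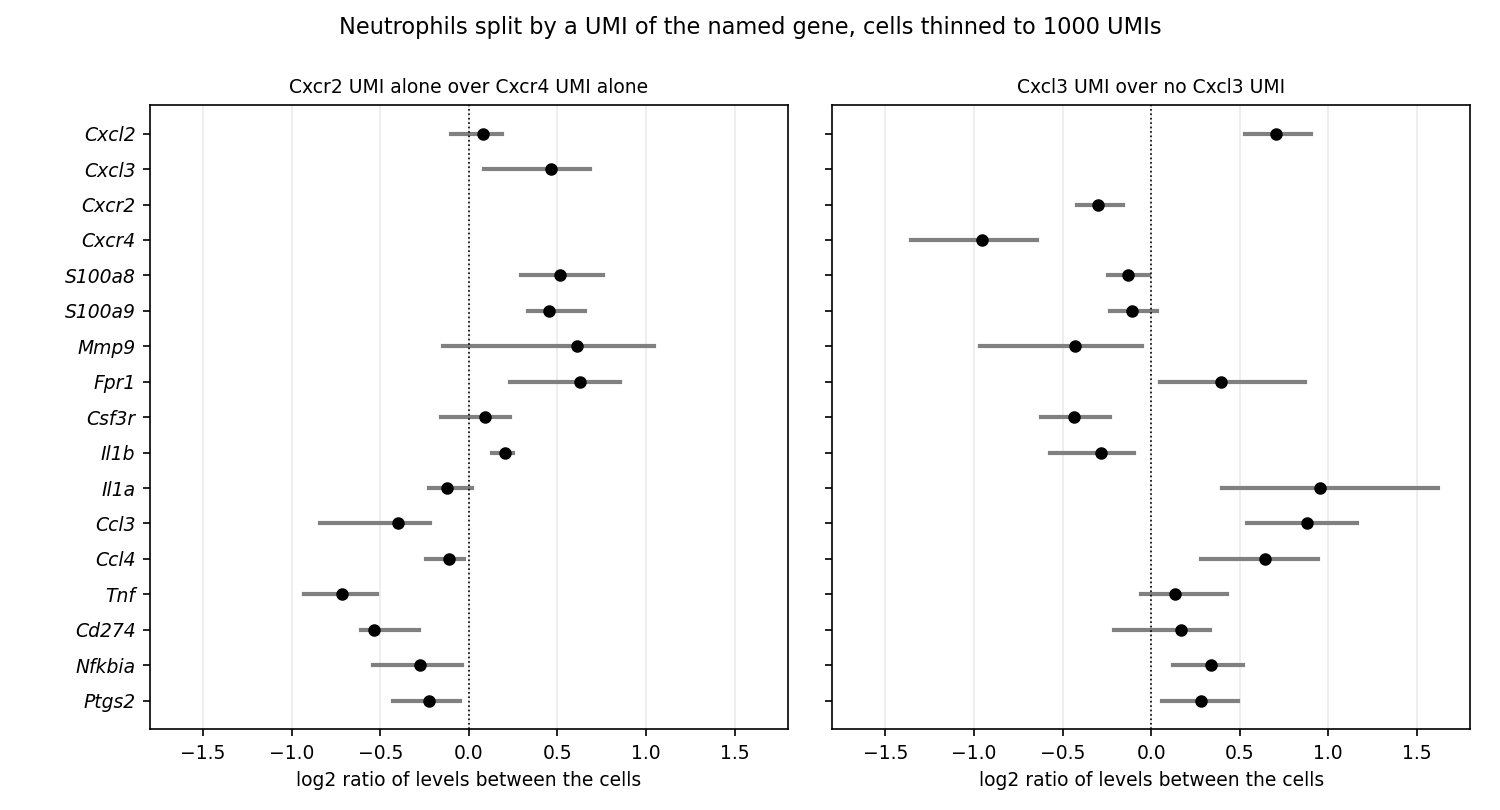
Log2 ratio of the level of each gene between neutrophils with a *Cxcr2* UMI alone and a *Cxcr4* UMI alone (left) and with and without a *Cxcl3* UMI (right), in cells thinned to 1000 UMIs. Points are ratios of the means over 4 tumors and lines run from the lowest to the highest tumor. *Tnf* and *Cd274* lie on the *Cxcr4* side in every tumor, and *Cxcl2* and *Ccl3* on the side of *Cxcl3* in every tumor. Cells with both receptors or neither are not drawn on the left.

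The genotypes were compared within cell types, the question of the study being what follows when *Csf1r* is deleted in *Lyve1*-expressing cells. With 2 tumors of each genotype, a test over single values cannot go below p = 0.333 (exact, two-sided), so the fit across all genes was used. In neutrophils no gene passed, 0.00% of 7791 tested (edgeR), with 99 at an unadjusted p under 0.05 and 0 with DESeq2. Log2 differences of Lyve1CreCsf1rfl/fl over Csf1rfl/fl were 0.38 (SE 0.41) for *Cxcl1*, 0.19 (SE 0.55) for *Cxcl2*, 0.25 (SE 0.39) for *Cxcl3*, -0.14 (SE 0.34) for *Cxcr2* and 0.27 (SE 0.29) for *Cxcr4*, and none passed, with an adjusted p of 0.9995 for each (edgeR). On data simulated from these neutrophil sums, the same fit recovered 20% of genes changed 2-fold and 84% of those changed 4-fold, so most 2-fold changes would not have been called with these libraries. With the run as a replicate block 0.103% of genes were called, none of them a member.

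The runs disagreed for the 3 chemokines and *Cxcr2*. *Cxcl2* was higher in the Lyve1CreCsf1rfl/fl tumor in run 1, by 0.45 on the log2 scale, and lower in run 2, by -0.25. For *Cxcl1* the values were 1.14 and -1.07, for *Cxcl3* 0.63 and -0.26, and for *Cxcr2* 0.11 and -0.31. *Cxcr4* was higher in both runs, by 0.22 and 0.30, and was the only member whose genotypes did not overlap in neutrophils, at 2.09 and 2.22 against 2.44 and 2.72 UMIs per 10000. Over all genes, 22.0% did not overlap, 9.90% in this direction. The Lyve1CreCsf1rfl/fl tumor of run 1 had the highest *Cxcl1*, *Cxcl2* and *Cxcl3* of the 4 tumors, and without it the differences were -0.91, -0.34 and -0.22. Without the Csf1rfl/fl tumor of run 2 that of *Cxcr2* was 0.28. With stricter gates the neutrophil differences were 0.59 for *Cxcl1*, 0.51 for *Cxcl2*, 0.54 for *Cxcl3*, 0.19 for *Cxcr2* and 0.60 for *Cxcr4*, and none passed.

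**Figure D5:**
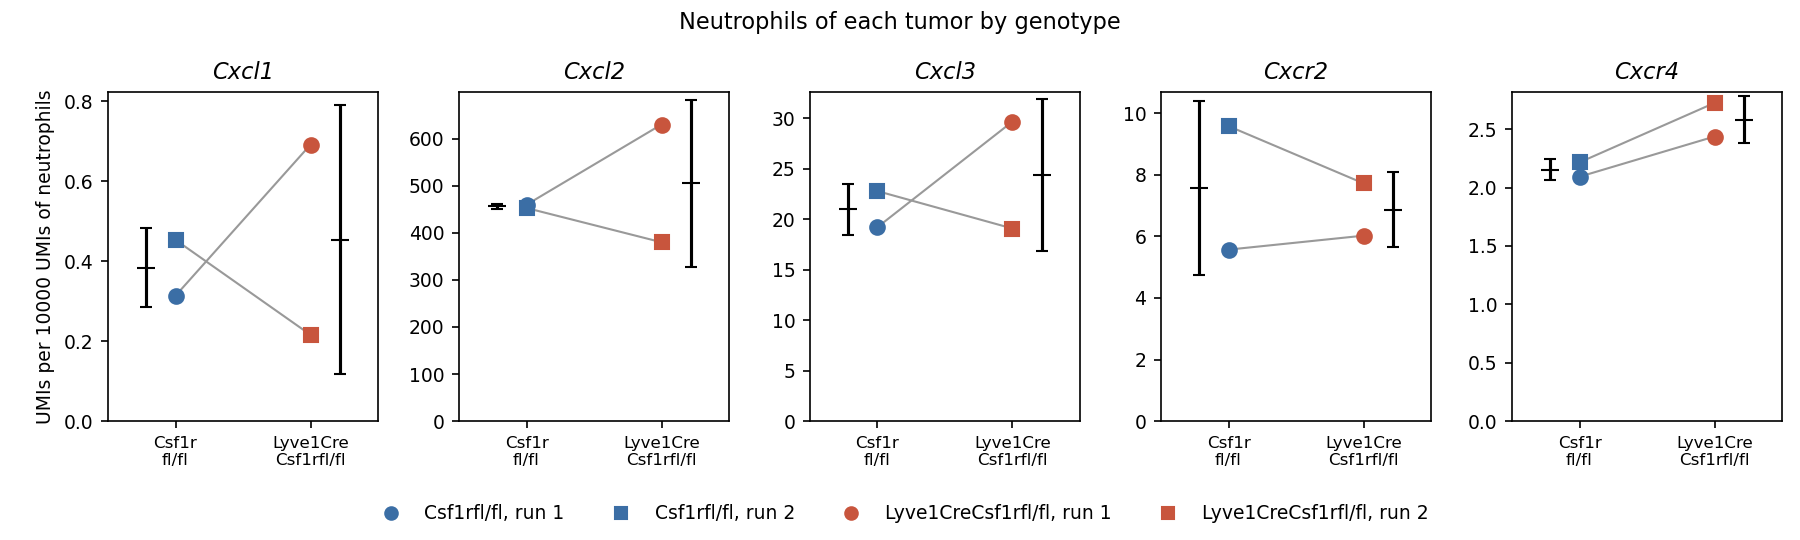
Level of each gene in neutrophils (UMIs per 10000, axes from 0) in the 2 Csf1rfl/fl and 2 Lyve1CreCsf1rfl/fl tumors, with lines joining tumors of the same run and bars for the mean and SD of each genotype. The lines of the runs go in opposite directions for *Cxcl1*, *Cxcl2*, *Cxcl3* and *Cxcr2*, and both rise for *Cxcr4*.

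In mononuclear phagocytes 1 gene passed, 0.00926% of 10801 tested. It was *Arg1*, lower by -2.25 (SE 0.22, adjusted p = 0.0271, edgeR) in Lyve1CreCsf1rfl/fl tumors and named here after its value was seen. No gene was called with stricter gates, without the 10% of cells with the most UMIs, or with gates without *Csf1r*. The summed level of C1q macrophage markers in these cells was 31.1 and 21.2 UMIs per 10000 in Csf1rfl/fl tumors and 15.04 and 13.8 in Lyve1CreCsf1rfl/fl tumors. Arg1 macrophage markers, *Arg1* among them, summed to 9.26 and 9.76 against 7.04 and 7.05. The part of these markers in the *Arg1* value was not tested. The members did not pass, with log2 differences of -1.02 (SE 0.76) for *Cxcl1*, -0.14 for *Cxcl2*, -0.24 for *Cxcl3*, 0.19 for *Cxcr2* and 0.19 for *Cxcr4*. All 5 overlapped between genotypes, whereas 22.2% of all genes did not, and 0.102% were called with the run as a replicate block. The *Cxcl1* value rested on 208 UMIs, of which the Lyve1CreCsf1rfl/fl tumor of run 2 gave 1. Without the Lyve1CreCsf1rfl/fl tumor of run 1 the fit gave -5.11 for *Cxcl1* (adjusted p = 7.52e-07) and -1.71 for *Cxcl3* (adjusted p = 0.00764), and without the Csf1rfl/fl tumor of run 2 it gave -1.43 for *Cxcl1* (adjusted p = 0.0184). The calls in these subsets depend on which tumor is left out. With stricter gates the differences were -0.023 for *Cxcl1*, -0.0089 for *Cxcl3* and 0.0050 for *Cxcr2*.

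In dendritic cells no gene passed, 0.00% of 10957 (edgeR), with 276 at an unadjusted p under 0.05 and 3 with DESeq2. *Cxcr4* was at 0.346 and 0.443 UMIs per 10000 in Csf1rfl/fl tumors and 0.498 and 0.532 in Lyve1CreCsf1rfl/fl tumors, a log2 difference of 0.41 (SE 0.19). *Cxcl3* was at 0.0841 and 0.127 against 0.160 and 0.139, a difference of 0.55 (SE 0.26). Neither gene passed the test. The genotypes did not overlap for either, nor for *Cxcl1*, which had 26 UMIs and was not tested, all higher in Lyve1CreCsf1rfl/fl tumors. The summed level of mature dendritic cell markers in these cells also did not overlap, at 22.5 and 26.9 UMIs per 10000 against 31.7 and 36.4, and that of C1q macrophage markers was 3.55 and 1.75 against 1.38 and 1.16. Cd209a dendritic cells, mature dendritic cells and cDC1 made up the pooled dendritic cells, which left out plasmacytoid dendritic cells. Within each pooled type *Cxcl3* overlapped between genotypes. It was at 0.0773 and 0.273 against 0.2700 and 0.329 in mature dendritic cells, which hold the most of it. In plasmacytoid dendritic cells *Cxcl3* did not overlap and was lower in Lyve1CreCsf1rfl/fl tumors, at 0.0982 and 0.0640 against 0.0405 and 0, from 13 UMIs. *Cxcr4* did not overlap in mature dendritic cells (0.345 and 0.449 against 0.479 and 0.490), in Cd209a dendritic cells or in cDC1, and overlapped in plasmacytoid dendritic cells. The part of the makeup in the pooled values was not tested. Over all genes tested in the pooled dendritic cells 22.2% did not overlap, 9.17% being higher in Lyve1CreCsf1rfl/fl tumors, and 0.210% were called with the run as a replicate block. The share of genes without overlap was not counted within single dendritic types, so the lack of overlap in those types says little about *Cxcr4* or *Cxcl3*. Cells assigned by T cell markers also gave no call, 0.00% of 11948 (edgeR), with 171 at an unadjusted p under 0.05 and 0 with DESeq2. These cells include the rest of the T cell gate, with its NK markers. *Cxcr4* there was higher in the Lyve1CreCsf1rfl/fl tumor in run 1, by 0.98, and lower in run 2, by -0.41. All 5 members overlapped between genotypes in these cells, whereas 16.4% of all genes did not.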

How the data were processed

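Single-cell RNA and hashtag libraries of the 2 pooled runs were made with the Chromium 3′ v2 kit, and the authors aligned reads to mm10 with Cell Ranger 6.0.1 and deposited raw UMI counts per gene and hashtag counts per barcode. A deposited table of SCTransform-corrected values, treated as a score, was read only for the names of the cells that the authors retained with Seurat (singlets with a low mitochondrial share). No doublet caller was run beyond theirs, and cells with markers of 2 lineages were set aside.

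The higher hashtag of the run gave the tumor, and 11 cells with equal counts were left out. Marker thresholds were set on the sums of marker UMIs per 10000 after their distributions were seen (128 for neutrophils, 32 for mononuclear phagocytes, 10 for T cells, with at least 2 markers), and 20 B cells, under the minimum of 50, were left out. The 5 genes, lists and tests were chosen with earlier results of these data known. Levels are UMIs per 10000 of the summed cells. Levels are compared between cell types, not between genes, since capture efficiency of each transcript is not known. Counting error alone is not the spread between tumors, which is what SDs and tests use.

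Sums per tumor were tested with edgeR 4.0.16 in R 4.3.3 (filterByExpr, TMM, adjusted p threshold 0.05), 4 against 4 for cell types with tumor as a block and 2 against 2 for genotypes. Python 3.11.15, numpy 2.4.6, pandas 2.3.3 and scipy 1.17.1 were used otherwise. Alternatives were DESeq2 1.42.0, library totals, no filter on low counts, stricter gates (2 times the thresholds), leaving out the 10% of cells with the most UMIs, a 3-fold hashtag margin, thinning, the mean over cells, leaving out each tumor, and the replicate block. The fits were tested on simulated data. Genes named are the 5 members, up to 4 genes of a list with the lowest adjusted p, and the 3 genes nearest to each member by correlation of log2(level + 0.1) among genes reaching 0.5 UMIs per 10000 in a type. Genes named outside this rule serve as examples of a level or a split, chosen after their values were seen. Of the genes this rule names, 1 is not reported here. *Adrbk1*, an older symbol of *Grk2*, has no column. Replicate numbers of the labels mark runs, which 2 tumors shared as a batch, and same-run deviations from the genotype means correlated at r = 0.309 in neutrophils, 0.356 in mononuclear phagocytes, 0.370 in dendritic cells and 0.345 in T cells. With 2 tumors per genotype both runs give the same r.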

Additional observations from a re-analysis of the deposited data

Results flagged for a closer look

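The within-run differences of *Cxcl3* between genotypes had 1 sign in dendritic and T cells and the other in mononuclear phagocytes, where that of run 1 was near 0. The difference between cell types was not tested, and *Cxcl3* passed the test in none of them. The log2 ratio of Lyve1CreCsf1rfl/fl to Csf1rfl/fl was 0.93 in run 1 and 0.13 in run 2 in dendritic cells, 0.16 and 0.11 in T cells, -0.016 and -1.02 in mononuclear phagocytes, and 0.63 and -0.26 in neutrophils. In mononuclear phagocytes the genotypes overlapped, and the sign of the fitted difference changed when the run 1 tumor of Csf1rfl/fl (0.45) or the run 2 tumor of Lyve1CreCsf1rfl/fl (0.47) was left out.

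The members were also present in cells that entered no comparison. Cells with markers of 2 lineages had mean levels of 0.128 UMIs per 10000 for *Cxcl1*, 81.3 for *Cxcl2*, 4.02 for *Cxcl3*, 1.16 for *Cxcr2* and 0.849 for *Cxcr4*. Cells that met no marker threshold had 0.154 for *Cxcl1*, 56.0 for *Cxcl2*, 2.78 for *Cxcl3*, 0.238 for *Cxcr2* and 0.839 for *Cxcr4*. Levels of *Cxcl2*, *Cxcl3*, *Cxcr2* and *Cxcr4* in both sets lay under those of neutrophils.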

How the results depend on the processing

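Between cell types, the 5 genes kept their direction and call under 105 of 105 alternatives. Between genotypes, 184 of 213 values did, 26 changed direction and 3 passed the threshold, all 3 with a tumor left out. With run as a replicate block, genes called between genotypes numbered 8 in neutrophils, 11 in mononuclear phagocytes (the 1 gene called without it among them), 23 in dendritic cells and 0 in T cells. None of the 5 genes was called under this block, with an adjusted p of 0.999 in neutrophils, at least 0.727 in mononuclear phagocytes and at least 0.364 in dendritic cells, and it changed no other call for them. Without a filter on low counts 7 genes were called in neutrophils and 37 in dendritic cells. DESeq2 called 3 in mononuclear phagocytes and 3 in dendritic cells. In mononuclear phagocytes 0 genes were called with stricter gates, 0 without the cells with the most UMIs, and 0 with gates without *Csf1r*, an alternative chosen after seeing the data. Leaving out 1 tumor gave 6 to 11 calls in neutrophils, 21 to 91 in mononuclear phagocytes, 8 to 52 in dendritic cells and 4 to 51 in T cells, in fits where a genotype left with 1 tumor took its spread from the other.

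With stricter gates the log2 difference between genotypes changed sign for *Cxcr2* in neutrophils (0.19), *Cxcl2* in dendritic cells (-0.40) and *Cxcl3* in T cells (-1.11). In T cells it changed sign for *Cxcl2* (0.26) and *Cxcr2* (0.18) without the cells with the most UMIs, and for *Cxcl2* (0.025) and *Cxcr2* (0.0050) with a 3-fold hashtag margin. Without a change of sign, stricter gates moved it from 0.19 to 0.51 for *Cxcl2* and from 0.27 to 0.60 for *Cxcr4* in neutrophils, from -1.02 to -0.023 for *Cxcl1* in mononuclear phagocytes, and from 0.55 to 0.17 for *Cxcl3* and from -0.07 to -0.72 for *Cxcr2* in dendritic cells. Without the cells with the most UMIs *Cxcl3* in T cells moved from 0.12 to 0.96. The causes were not tested. Stricter gates also move cells from the class with markers of 2 lineages into the types, and the level of *Cxcr4* in neutrophils was 2.06 UMIs per 10000 with them and 2.73 as a mean over cells. Thinned cells gave 45.4% with a *Cxcr2* UMI and 19.5% with a *Cxcr4* UMI.

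Leaving out 1 tumor moved the log2 difference in neutrophils from -0.91 to 0.93 for *Cxcl1*, from -0.34 to 0.55 for *Cxcl2*, from -0.22 to 0.58 for *Cxcl3* and from -0.48 to 0.28 for *Cxcr2*. In mononuclear phagocytes it ran from -5.11 to -0.083 for *Cxcl1*, from -0.73 to 0.28 for *Cxcl2*, from -1.71 to 0.47 for *Cxcl3* and from -0.36 to 0.59 for *Cxcr2*. In dendritic cells it ran from -0.48 to 0.91 for *Cxcl2* and from -2.19 to 0.61 for *Cxcr2*. In T cells it ran from -3.87 to 0.22 for *Cxcl1*, from -0.76 to 0.67 for *Cxcl2*, from -0.67 to 0.93 for *Cxcl3*, from -0.92 to 0.32 for *Cxcr2* and from -0.20 to 0.80 for *Cxcr4*. With 2 tumors per genotype, and 29 *Cxcl1* UMIs in the neutrophils of 1 tumor, genotype differences in these genes were not resolved.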
